A study of Homo sapiens with 6 samples.

Results

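The 37 genes of the human mitochondrial genome were compared between control cells and cells made to express BARD1, in RNA sequencing of 6 libraries of ovarian carcinoma cells. The 37 genes are all rows that the deposited table of 58735 genes places on chromosome MT, namely 13 mRNAs, 2 rRNAs and 22 tRNAs, and 28 of the 37 had enough counts to be tested. Control cells (3 libraries) and BARD1-expressing cells (3 libraries) were both labelled as stable cells sampled at 48 h, and no other agent or allele is given for either group. A BARD1 reading frame was brought in by lentivirus in OVCAR8 cells, where GFP-BARD1 was looked for by microscopy, and the labels do not say whether the control cells received an empty virus or whether either line is 1 clone. Titles name the line OVCAR8ip1, whereas other tags name SKOV3ip1 and tumors, so the line and its source are in conflict. The design therefore does not separate BARD1 from other differences between the cell populations. Replicates are called biological without further detail, so each p-value reflects only how far these libraries vary, which may be technical. The level of BARD1, in counts scaled to library size (CPM), was 17.1, 17.2 and 19.4 for control and 49.0, 44.3 and 45.7 for BARD1-expressing cells, which matches the labels (log2 fold change 1.37 ± 0.081).

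Total counts were 21819199 to 23992482 in control libraries and 12744310 to 24349158 in BARD1-expressing libraries. CPM were scaled by edgeR's trimmed-mean method (TMM). A gene without a count could still have had 3, or 0.124 to 0.236 CPM depending on the library (counting error only). Each log2 fold change sets BARD1-expressing against control cells. Its standard error (SE) was derived as its size over the square root of the F statistic of edgeR's quasi-likelihood test. A gene is called lower or higher at a Benjamini-Hochberg adjusted p under 0.05 over all 15400 tested genes. The 10 markers of serous ovarian carcinoma summed to 3956 to 4029 CPM in control and 3927 to 4195 CPM in BARD1-expressing libraries. Most of this was the epithelial keratins KRT7, KRT8 and KRT18, and MUC16 was at 0. The marker calls that follow stand beside 16.5% called higher and 12.4% called lower over all tested genes. Of the 10 markers, KRT7, WT1 and CLDN3 were called higher, CLDN3 from no count in any control library. WT1 had 10, 7 and 10 counts in control and 5, 43 and 11 in BARD1-expressing libraries, with overlap. PAX8, a lineage factor, was called lower (log2 fold change -0.65 ± 0.061). The 8 leukocyte markers summed to at most 1.59 CPM in any library, with CD3E, MS4A1 and TYROBP at 0. The 8 endothelial markers summed to 3.90 to 4.70 CPM in control and 7.94 to 9.75 CPM in BARD1-expressing libraries, with EMCN at 0. Most of this was PLVAP (3.53 ± 0.377 and 7.19 ± 0.993 CPM, SD, n = 3 each). PLVAP and KDR, the latter below 1 CPM in mean, were the only 2 tested, and both were called higher. The 8 fibroblast and pericyte markers, mostly COL1A1, summed to 1016 to 1083 CPM and 840 to 888 CPM, with DCN at 0. COL1A1 alone was called lower, while PDGFRB (4.81 ± 0.634 and 13.7 ± 0.922 CPM, SD, n = 3 each), LUM and ACTA2 were called higher, the last 2 below 1 CPM in mean. The part of such markers in the results below was not tested.

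Mitochondrial DNA is a small circle whose 2 strands are each copied into long RNAs by the polymerase POLRMT with the factors TFAM and TFB2M. The tRNAs lie between most of the longer genes, and cutting at both ends of each tRNA releases the rRNAs and mRNAs. The mRNAs encode membrane subunits of respiratory complexes I, III and IV and of the ATP synthase, and the rRNAs and tRNAs serve the ribosomes that translate them inside the organelle. As deposited, 28 genes lie on the plus strand, here called heavy-strand genes as is usual for this set, and 9 on the minus strand (light-strand genes), namely the mRNA MT-ND6 and 8 tRNAs. Most mitochondrial mRNAs carry short poly(A) tails, whereas MT-ND6 mRNA is known to lack one and mature tRNAs end in CCA, so poly(T) capture need not recover the classes alike. The sources used here name both stranded and unstranded library kits and no counting mode, so reads of opposite strands cannot be told apart.

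The sequences below show the junction where adjoining genes had unlike changes, the other tRNAs with the most counts, and the stretches that mRNAs share. They are written 5′ to 3′ from GENCODE release 29 transcripts on GRCh38, whose coordinates equal those of the deposited table for 37 of 37 genes. The first runs through the junction of the rRNA genes (chrMT:1582-1690, plus strand), with the 69 bases of MT-TV, the valine tRNA, in capitals between the last 20 bases of MT-RNR1 and the first 20 of MT-RNR2.
MT-RNR1, MT-TV and MT-RNR2: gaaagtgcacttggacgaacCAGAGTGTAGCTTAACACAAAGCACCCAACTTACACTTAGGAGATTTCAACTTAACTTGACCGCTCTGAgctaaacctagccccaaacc
No base separates the 3 genes, so a read longer than the tRNA reaches into an rRNA. The next 4 are the other tRNA genes with the most counts, on the strand of their RNA, with the anticodon in capitals. They are the tRNAs for leucine (MT-TL1, MT 3230 to 3304, plus strand), cysteine (MT-TC, 5761 to 5826, minus strand), asparagine (MT-TN, 5657 to 5729, minus strand) and proline (MT-TP, 15956 to 16023, minus strand).
MT-TL1: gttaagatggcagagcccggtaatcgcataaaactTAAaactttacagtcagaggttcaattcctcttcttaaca
MT-TC: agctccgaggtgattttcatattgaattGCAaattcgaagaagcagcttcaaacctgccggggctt
MT-TN: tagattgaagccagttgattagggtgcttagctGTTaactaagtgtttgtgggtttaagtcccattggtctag
MT-TP: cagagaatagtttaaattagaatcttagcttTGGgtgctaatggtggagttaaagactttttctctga
The last pair shows where mRNAs overlap, with the shared bases in capitals. They are 46 bases of MT-ATP8 and MT-ATP6 (chrMT:8507-8592) and 7 bases of MT-ND4L and MT-ND4 (chrMT:10740-10786).
MT-ATP8 and MT-ATP6: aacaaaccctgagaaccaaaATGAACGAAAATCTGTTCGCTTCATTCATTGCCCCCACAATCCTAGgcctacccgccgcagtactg
MT-ND4L and MT-ND4: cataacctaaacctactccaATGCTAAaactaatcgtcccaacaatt
MT-ATP6 and MT-CO3 share 1 base as well. No source used here says how a read touching 2 genes was treated, so the counts of overlapping genes and of the short tRNA genes are uncertain.

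Mitochondrial RNA made up a smaller share of the counts in BARD1-expressing cells. Of all counts, the 37 genes held 2.05%, 1.90% and 2.40% for control replicates 1 to 3. For BARD1-expressing replicates 1 to 3 they held 1.16%, 1.31% and 0.965%. Every control library lay above every BARD1-expressing library, with means of 2.12% ± 0.259 and 1.15% ± 0.175 (SD, n = 3 each). The exact two-sided permutation test gave p = 0.1, the lowest value attainable with 3 libraries in each group. The Wilson 95% interval of each library's share was at most 0.00643 percentage points to either side. The spread between libraries was therefore far larger than counting error, with control library 3 highest and BARD1-expressing library 3 lowest.

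All 3 classes took part in this shift. The mRNAs held 1.95% ± 0.242 of counts in control and 1.06% ± 0.161 in BARD1-expressing libraries (SD, n = 3 each). The rRNAs held 0.151% ± 0.0149 and 0.0834% ± 0.0130, and the tRNAs 0.0149% ± 0.00136 and 0.00728% ± 0.00102 (SD, n = 3 each). The groups did not overlap in any of the 3 classes (exact two-sided permutation p = 0.1 each). A share sets mitochondrial against nuclear RNA, and in bulk RNA fewer cells with an RNA and less of it per cell cannot be told apart. Among BARD1-expressing libraries the deepest (library 2) had the highest share, and among controls the shallowest (library 3) did; the part of depth in these shares was not tested.

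**Figure D1:**
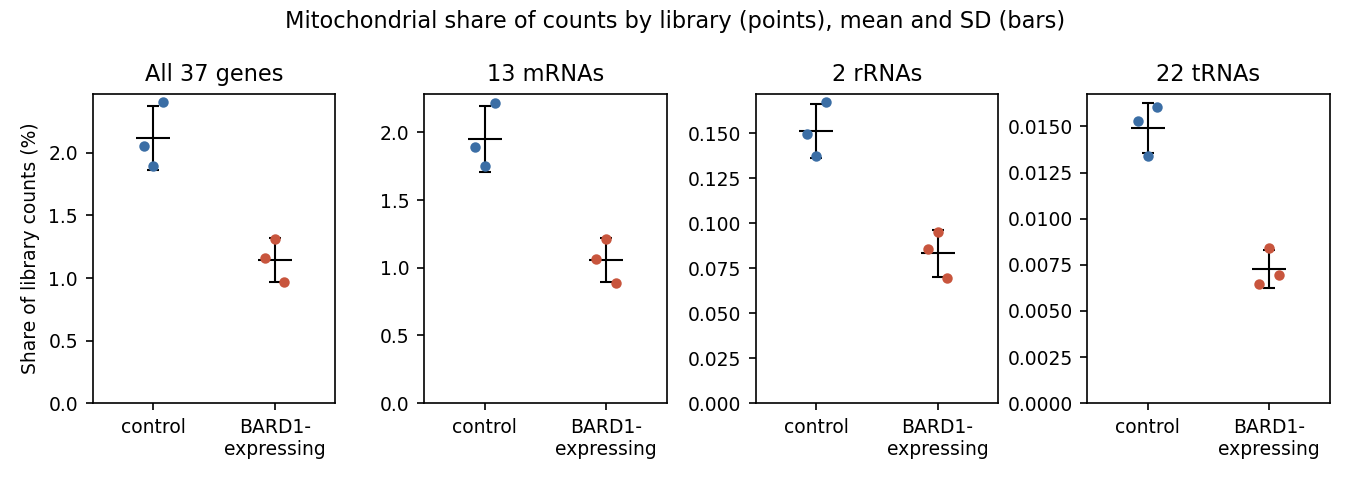
Share of library counts (%) held by all 37 mitochondrial genes and by the mRNAs, rRNAs and tRNAs, with 1 point per library and bars for the mean and SD of 3 libraries. In each panel the 3 control libraries lie above the 3 BARD1-expressing libraries, and for all 37 genes the means are 2.12% and 1.15%.

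Relative to each other, the classes had proportions that overlapped between the groups. The rRNAs had 7.91, 7.87 and 7.53 counts per 100 mRNA counts in control libraries and 8.03, 7.85 and 7.81 in BARD1-expressing libraries, and the groups overlapped (exact two-sided permutation p = 0.6). The log2 difference of this ratio was 0.02. The tRNAs had 0.809, 0.768 and 0.724 counts per 100 mRNA counts in control and 0.605, 0.695 and 0.783 in BARD1-expressing libraries, again with overlap (exact two-sided permutation p = 0.3). The near-equal rRNA total was the sum of unlike members, described further down.

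Of the 13 mRNAs, 10 were called lower in BARD1-expressing cells and none higher (edgeR, where 29.0% of all tested genes were called, 12.4% lower and 16.5% higher). The other 3, MT-ND2, MT-ND3 and MT-ATP8, did not pass the test, and their log2 fold changes were -0.45 ± 0.174, -0.41 ± 0.206 and -0.50 ± 0.282. The median log2 fold change of the 13 was -0.85, against -0.0027 for all tested genes. For 11 of the 13 every control library lay above every BARD1-expressing library, which was so for 19.2% of all tested genes. The count of lower calls rests on single libraries, and it was 3 without BARD1-expressing library 1 (MT-CO2, MT-ND5 and MT-ND6) and 4 without control library 1 (the same 3 and MT-CYB). The median itself stayed at or below -0.77 with any 1 library left out.

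Among the subunits of complex IV (cytochrome c oxidase), which hands electrons to oxygen, all 3 mitochondrial mRNAs were called lower. MT-CO1 (ENSG00000198804, MT 5904 to 7445), the catalytic subunit and the most abundant of the 13, had 6206, 5922 and 7467 CPM in control libraries and 3609, 4013 and 2930 CPM in BARD1-expressing libraries. The groups did not overlap, and its log2 fold change was -0.89 ± 0.161 (edgeR adjusted p = 0.0175). That call was lost without control library 1 or BARD1-expressing library 1. MT-CO2 (ENSG00000198712, MT 7586 to 8269), which carries the copper site that receives electrons from cytochrome c, had 2070, 1974 and 2469 CPM in control libraries. It had 990, 1130 and 828 CPM in BARD1-expressing libraries, a log2 fold change of -1.14 ± 0.155 (edgeR adjusted p = 0.00635). Its call held in all 12 alternatives tried, and it was the 1 mRNA of which this was true. MT-CO3 went from 1513 ± 148 to 957 ± 157 CPM (SD, n = 3 each; log2 fold change -0.66 ± 0.147), and its call was lost without control library 1 or 3 or BARD1-expressing library 1.

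Complex I, which takes electrons from NADH, has 7 mitochondrial subunits, and the mRNAs of 5 were called lower. MT-ND5 (ENSG00000198786, MT 12337 to 14148), one of its proton-pumping subunits, had 1197, 1120 and 1456 CPM in control libraries and 567, 613 and 457 CPM in BARD1-expressing libraries. The groups were well apart, with a log2 fold change of -1.20 ± 0.163 (edgeR adjusted p = 0.00662). MT-ND6 (ENSG00000198695, MT 14149 to 14673), the only mRNA of the light strand, had 334, 305 and 418 CPM in control libraries and 135, 156 and 115 CPM in BARD1-expressing libraries. Its log2 fold change of -1.38 ± 0.180 was the lowest of the 13 (edgeR adjusted p = 0.00608). MT-ND1 (-0.95 ± 0.199), MT-ND4L (-0.85 ± 0.165) and MT-ND4 (-0.82 ± 0.173) were also called lower, and each of these calls was lost without control library 1 or BARD1-expressing library 1. MT-ND1 and MT-ND4L also lost it without control library 3, and MT-ND4 without BARD1-expressing library 2. MT-ND3 overlapped between the groups, at 389, 355 and 391 CPM in control libraries and 220, 362 and 269 CPM in BARD1-expressing libraries. MT-ND2 did not overlap (766 to 1008 CPM in control libraries and 525 to 732 CPM in BARD1-expressing libraries), but did not pass the test.

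Complex III and the ATP synthase have 1 and 2 mitochondrial subunits. MT-CYB (ENSG00000198727, MT 14747 to 15887), the cytochrome b of complex III, had 1115, 1039 and 1362 CPM in control libraries and 599, 682 and 505 CPM in BARD1-expressing libraries. Its log2 fold change was -0.98 ± 0.165 (edgeR adjusted p = 0.0138), and the call was lost without BARD1-expressing library 1. MT-ATP6 (ENSG00000198899, MT 8527 to 9207), which forms the proton channel of the ATP synthase, went from 1175 ± 171 to 708 ± 103 CPM (SD, n = 3 each; log2 fold change -0.73 ± 0.165). That call was lost without control library 1 or BARD1-expressing library 1 or 2. MT-ATP8 had only 56 to 277 counts per library, at 10.7, 8.23 and 12.8 CPM in control libraries and 4.40, 9.70 and 7.50 CPM in BARD1-expressing libraries, with overlap. The 46 bases it shares with MT-ATP6 are 46 of its 207.

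**Figure D2:**
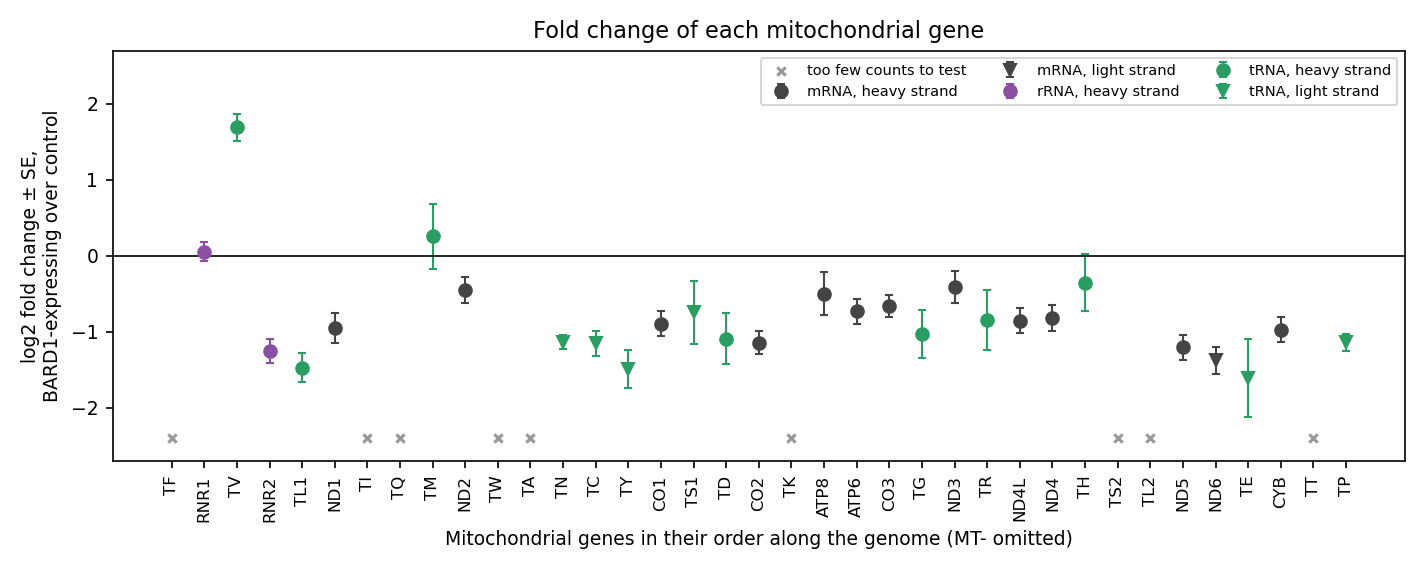
Log2 fold change (BARD1-expressing over control) with its SE for the 28 tested mitochondrial genes, in their order along the genome, by class (colour) and strand (marker shape); crosses mark the 9 tRNAs with too few counts. The 13 mRNAs all lie below 0, whereas MT-RNR1 lies near 0 (0.05) and MT-TV, next to it, at 1.69.

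Per length, the order of the mRNA levels was much the same in both groups. MT-CO1 led with 4236 ± 533 CPM per kb in control cells and 2281 ± 355 CPM per kb with BARD1, followed by MT-CO2 (3174 ± 384 and 1437 ± 221) and MT-CO3 (1930 ± 188 and 1221 ± 200; SD, n = 3 each). In control cells MT-CO3 lay above MT-ND4, MT-ATP6 and MT-ND4L in every library. Its mean was 1930 CPM per kb, against 1725 to 1778 for those mRNAs. The lowest long mRNAs were MT-ND5 (694 ± 97.2 CPM per kb in control) and MT-ND6 (671 ± 111). Their means differed by less than the SD, with MT-ND5 slightly above in every control library. MT-ATP8 stood far below at 51.1 ± 11.0 CPM per kb in control cells and 34.8 ± 12.9 with BARD1 (SD, n = 3 each). MT-RNR1 was 14th of 15 in control cells (349 ± 28.3 CPM per kb) and 11th in BARD1-expressing cells (361 ± 54.9; SD, n = 3 each), where it was no longer below MT-RNR2, MT-ND5 and MT-ND6.

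**Figure D3:**
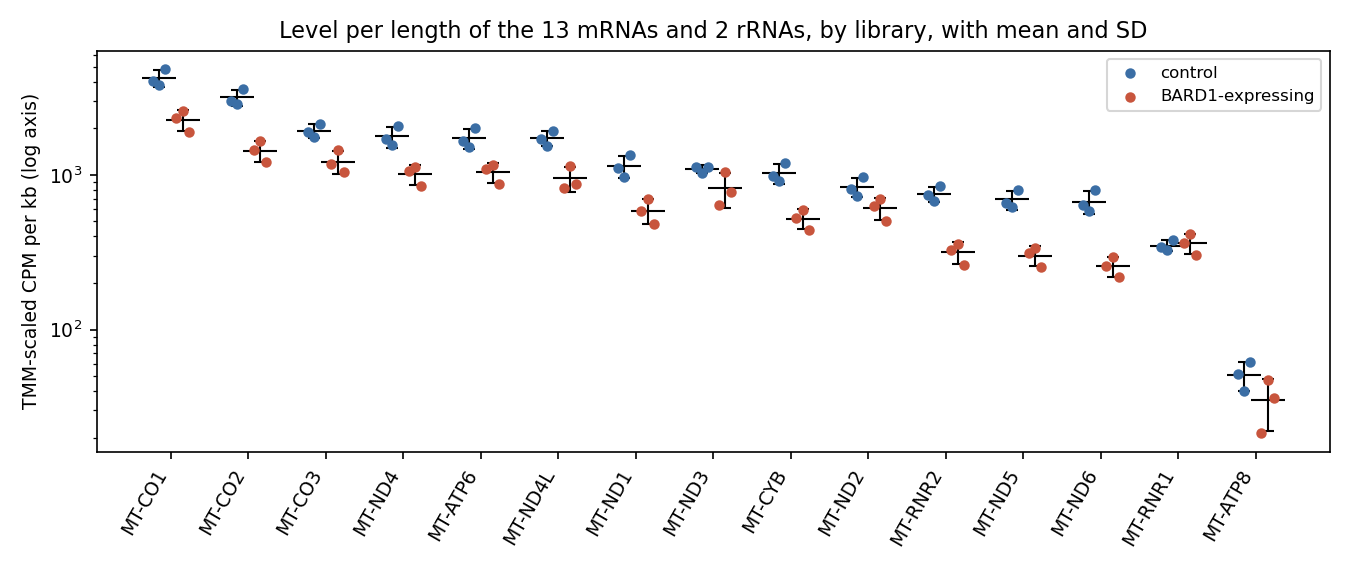
TMM-scaled CPM per kb of gene length (log axis) for the 13 mRNAs and 2 rRNAs, ordered by the control mean, with 1 point per library and bars for the mean and SD of 3 libraries. MT-CO1 is highest in both groups (4236 and 2281 CPM per kb), and MT-RNR1 is the only gene whose BARD1-expressing mean is not below its control mean.

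The mRNAs differed in the size of their measured changes. As a share of the counts of the 13, MT-ND6 had 1.79%, 1.75% and 1.87% in control libraries and 1.26%, 1.28% and 1.29% in BARD1-expressing libraries. MT-ND5 had 6.40%, 6.43% and 6.52% against 5.30%, 5.03% and 5.11%, and MT-CO2 had 11.1%, 11.3% and 11.1% against 9.26%, 9.28% and 9.27%. These shares barely varied within a group and did not overlap between groups. MT-CYB was lower as well (6.01% ± 0.0766 and 5.62% ± 0.0339), while MT-ND2 (4.47% ± 0.0707 and 6.01% ± 0.122), MT-CO3 (7.79% ± 0.256 and 9.02% ± 0.347) and MT-ATP6 (6.02% ± 0.0936 and 6.68% ± 0.205) were higher (SD, n = 3 each). Thus 4 shares were lower and 3 higher without overlap, and 6 overlapped, among them MT-CO1 (33.5% ± 0.404 and 33.2% ± 0.505). Each of the 7 had an exact two-sided permutation p = 0.1, the smallest possible, and p = 0.186 adjusted over the 13, so no share can pass at this number of libraries. The 13 shares add up to a fixed total, so lower shares of some mRNAs raise those of others. A higher share of MT-ND2 within a smaller total is not a higher level.

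**Figure D4:**
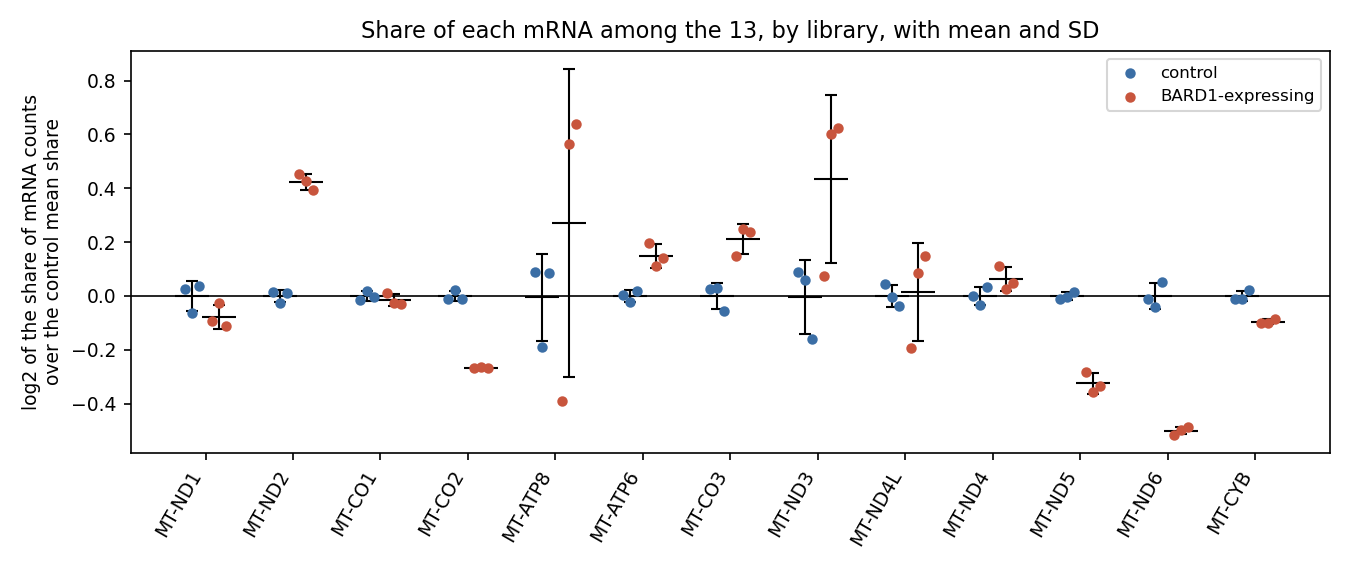
Log2 of each mRNA's share of the 13 mRNAs' counts over its mean share in control libraries, with 1 point per library and bars for the mean and SD of 3 libraries. MT-ND6, MT-ND5 and MT-CO2 sit below 0 and MT-ND2, MT-CO3 and MT-ATP6 above 0 in all 3 BARD1-expressing libraries, and among the BARD1-expressing libraries the short MT-ATP8, MT-ND3 and MT-ND4L are lowest in library 1.

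Among the BARD1-expressing libraries, library 1 stood apart in the shortest mRNAs. MT-ND3 (346 bases) had 2.06% of mRNA counts there against 2.97% and 3.02% in BARD1-expressing libraries 2 and 3. MT-ND4L (297 bases) had 2.30% against 2.80% and 2.92%, and MT-ATP8 (207 bases) 0.0412% against 0.0797% and 0.0839%. Without this library the MT-ND3 share was higher by 1.04 percentage points in BARD1-expressing cells, against 0.726 with it. The shortest of the nuclear subunit genes listed further down were also lowest in library 1. In BARD1-expressing libraries 1 to 3, COX8A (507 bases) had 116, 175 and 149 CPM and NDUFB7 (531 bases) 48.8, 66.7 and 61.4 CPM. NDUFS5 (548 bases) had 75.7, 86.0 and 82.1 CPM. Longer genes of these lists could be lowest there too, as NDUFB9 (4106 bases; 200, 252 and 233 CPM) and UQCRB (9715 bases; 201, 239 and 221 CPM). Others were highest there, as UQCRC2 (5217 bases; 165, 147 and 159 CPM). Control libraries varied as well, with MT-ND3 shares of 2.08%, 2.04% and 1.75%. The part of transcript length was not tested.

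By strand, the 1 light-strand mRNA, MT-ND6, had the lowest log2 fold change (-1.38 ± 0.180). Heavy-strand MT-ND5 (-1.20 ± 0.163) and MT-CO2 (-1.14 ± 0.155) were close to it, and it is not known whether counting kept the strands apart. MT-ND6 had 1.82, 1.78 and 1.90 counts per 100 counts of the 12 heavy-strand mRNAs in control libraries and 1.28, 1.29 and 1.30 in BARD1-expressing libraries. The groups did not overlap, with a log2 difference of -0.51 (exact two-sided permutation p = 0.1, the smallest possible). MT-ND5, which adjoins MT-ND6 on the other strand with no base between them, had the lowest log2 fold change of the heavy-strand mRNAs.

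The 2 rRNAs behaved differently from each other. MT-RNR2 (ENSG00000210082, MT 1671 to 3229), the 16S RNA of the large ribosomal subunit, had 1153, 1063 and 1321 CPM in control libraries and 512, 560 and 407 CPM in BARD1-expressing libraries. The groups did not overlap, its log2 fold change was -1.26 ± 0.156 (edgeR adjusted p = 0.00437), and the call held in all 12 alternatives. MT-RNR1 (ENSG00000211459, MT 648 to 1601), the 12S RNA of the small subunit, had 326, 310 and 362 CPM in control libraries and 347, 395 and 291 CPM in BARD1-expressing libraries. Its groups overlapped, and its log2 fold change was 0.05 ± 0.123 (edgeR adjusted p = 0.805), -0.07 to 0.15 over the alternatives.

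Set against the mRNAs of the same library, both rRNAs separated the groups, in opposite directions. MT-RNR1 had 1.74, 1.78 and 1.62 counts per 100 mRNA counts in control libraries and 3.24, 3.25 and 3.25 in BARD1-expressing libraries. The BARD1-expressing libraries were nearly identical in this ratio although their mitochondrial shares ranged from 0.965% to 1.31%. MT-RNR2 had 6.17, 6.10 and 5.91 counts per 100 mRNA counts in control libraries and 4.79, 4.60 and 4.56 in BARD1-expressing libraries. The ratio of MT-RNR2 to MT-RNR1 counts was thus 3.54, 3.43 and 3.65 in control and 1.48, 1.42 and 1.40 in BARD1-expressing libraries, a log2 difference of -1.31 (-1.33 to -1.28 with 1 library left out). Each of these ratios had an exact two-sided permutation p = 0.1, the smallest possible, and they were chosen after the values were seen.

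MT-TV, the valine tRNA gene between the rRNA genes, was the 1 mitochondrial gene called higher. It had 63, 42 and 50 counts in control libraries and 91, 200 and 94 in BARD1-expressing libraries, which is 2.60, 1.84 and 2.31 CPM against 7.16, 8.26 and 6.24 CPM. Every BARD1-expressing library lay above every control library, as was so for 21.7% of all tested genes. Its log2 fold change was 1.69 ± 0.181 (edgeR adjusted p = 9.46e-08) and stayed between 1.56 and 1.81 in all 12 alternatives. Per 100 MT-RNR1 counts it had 0.798, 0.594 and 0.637 counts in control and 2.06, 2.09 and 2.15 in BARD1-expressing libraries. So the 3 adjoining genes printed above as 1 stretch had log2 fold changes of 0.05, 1.69 and -1.26 in genomic order. MT-TL1, the leucine tRNA at the far end of MT-RNR2, had 8.99, 8.67 and 13.4 CPM in control and 2.75, 4.42 and 3.65 CPM in BARD1-expressing libraries (log2 fold change -1.47 ± 0.189, edgeR adjusted p = 7.71e-06). It overlapped between groups when set against MT-RNR2, with 0.780, 0.816 and 1.01 counts per 100 in control and 0.538, 0.788 and 0.897 in BARD1-expressing libraries. Set against MT-ND1, its other neighbour, it did not overlap. That ratio was 0.848, 0.933 and 1.05 counts per 100 in control and 0.492, 0.663 and 0.792 in BARD1-expressing libraries.

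**Figure D5:**
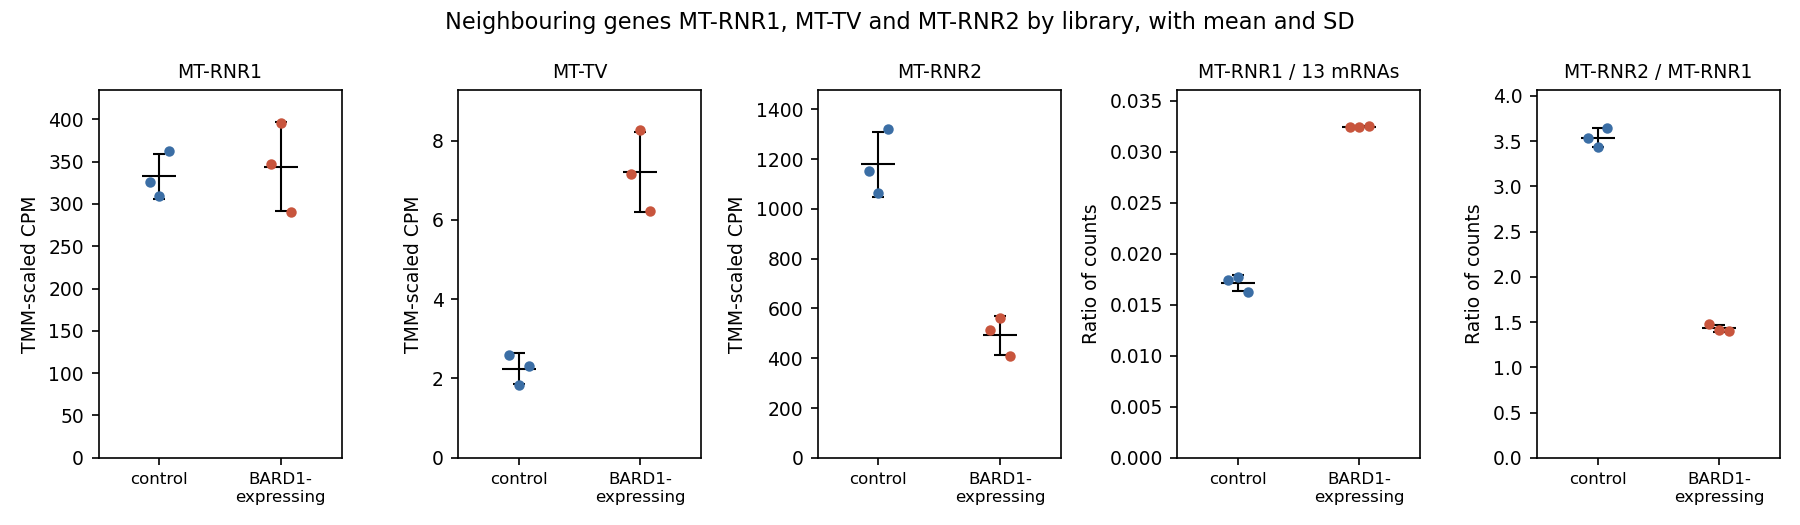
TMM-scaled CPM of MT-RNR1, MT-TV and MT-RNR2, the ratio of MT-RNR1 counts to the counts of the 13 mRNAs, and the ratio of MT-RNR2 to MT-RNR1 counts, with 1 point per library and bars for the mean and SD of 3 libraries. MT-RNR1 overlaps between groups, MT-TV is higher and MT-RNR2 lower in every BARD1-expressing library, and the ratio of MT-RNR2 to MT-RNR1 goes from 3.54 to 1.43.

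Of the 22 tRNAs, which carry amino acids to the mitochondrial ribosome, 13 were tested, 8 of them lower and 1 higher (MT-TV), where 12.4% of all tested genes were lower and 16.5% higher. A tRNA could be tested through its control level alone, so the counts of tested tRNAs are no measure of all 22. The most counts fell on 3 tRNA genes of the light strand. Reads of mature tRNAs, of longer RNAs and of the opposite strand cannot be told apart here, so these are not levels of mature tRNA. MT-TC (cysteine) had 49.5, 39.2 and 42.6 CPM in control and 14.4, 23.2 and 20.4 CPM in BARD1-expressing libraries, a log2 fold change of -1.15 ± 0.163 (edgeR adjusted p = 0.00120). MT-TN (asparagine) had 37.6, 33.9 and 40.0 CPM against 14.7, 17.6 and 18.3 CPM (-1.13 ± 0.092, edgeR adjusted p = 1.05e-09). MT-TP (proline) had 36.9, 37.5 and 48.0 CPM against 19.3, 20.3 and 15.5 CPM (-1.14 ± 0.114, edgeR adjusted p = 8.38e-07). In all 3 the groups were well apart, and the calls of these 3, MT-TL1 and MT-TY (tyrosine, -1.49 ± 0.245) held in all 12 alternatives.

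The remaining calls rested on few counts. MT-TE (glutamic acid) had 15, 12 and 18 counts in control and 2, 6 and 3 in BARD1-expressing libraries, MT-TD (aspartic acid) 28, 47 and 63 against 15, 22 and 12, and MT-TG (glycine) 55, 42 and 37 against 8, 34 and 9. These 3 were called lower with edgeR (log2 fold changes of -1.61 ± 0.513, -1.09 ± 0.334 and -1.03 ± 0.318) and none of them with DESeq2, and each call was lost with 1 of several libraries left out. The groups overlapped for MT-TD, and 2 BARD1-expressing libraries had no more than 3 counts of MT-TE. The count of lower tRNAs was accordingly 5 with DESeq2 and 5 without BARD1-expressing library 3. MT-TS1 (serine), MT-TR (arginine), MT-TH (histidine) and MT-TM (methionine) were tested but not called, with log2 fold changes of -0.74 ± 0.414, -0.84 ± 0.392, -0.35 ± 0.372 and 0.26 ± 0.429. The other 9 (MT-TF, MT-TI, MT-TQ, MT-TW, MT-TA, MT-TK, MT-TS2, MT-TL2 and MT-TT) had 0 to 14 counts in any library, too few to show a difference at this depth.

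By strand, 5 of 6 tested light-strand tRNAs and 3 of 7 tested heavy-strand tRNAs were called lower, against 12.4% of all tested genes, and 2 and 7 were not tested. The light-strand tRNAs summed to 131, 115 and 136 CPM in control and 50.0, 64.3 and 56.3 CPM in BARD1-expressing libraries. The heavy-strand tRNAs summed to 20.6, 18.8 and 25.4 CPM against 14.7, 20.4 and 13.6 CPM, with overlap, and without MT-TV to 18.0, 17.0 and 23.1 CPM against 7.55, 12.1 and 7.37 CPM, with none. The ratio of light-strand to heavy-strand tRNA counts had a log2 mean of 2.57 in control and 1.82 in BARD1-expressing libraries, with no overlap (exact two-sided permutation p = 0.1, the smallest possible). This separation was not seen without MT-TV, where the ratio was 7.26, 6.78 and 5.91 in control and 6.62, 5.29 and 7.65 in BARD1-expressing libraries and overlapped (exact two-sided permutation p = 0.9).

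Nuclear pseudogenes that descend from mitochondrial DNA can take up mitochondrial reads, and 3 of the 407 in the table had enough counts to be tested. All 3 lie on chromosome 1 between 629640 and 634376. MTND2P28 matches MT-ND2 at 98.4% of 1042 aligned bases, MTATP6P1 matches MT-ATP6 at 98.5% of 681 and MTCO1P12 matches MT-CO1 at 98.7% of 1542. MTATP6P1 (log2 fold change -0.80 ± 0.106) and MTCO1P12 (-1.30 ± 0.176) were called lower, and MTND2P28 (-0.53 ± 0.211) did not pass. MTND2P28 had 15.5%, 15.4% and 16.8% of the counts of MT-ND2 in control libraries and 13.4%, 15.8% and 15.8% in BARD1-expressing libraries, with overlap, as had MTATP6P1 to MT-ATP6 (2.81% ± 0.104 and 2.67% ± 0.290; SD, n = 3 each). MTCO1P12 had 0.154% ± 0.000935 of the counts of MT-CO1 in control and 0.110% ± 0.0191 in BARD1-expressing libraries (SD, n = 3 each), with no overlap. The next by level, MTND5P28, had 0 to 12 counts in any library. Counts of these pseudogenes and their parents are uncertain for this reason.

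Genes in the nucleus that make and process mitochondrial RNA were lower by small amounts where called. Of 10 genes of mitochondrial transcription 3 were called lower and none higher, with a median log2 fold change of -0.16. Over all tested genes 12.4% were lower and 16.5% higher. The polymerase gene POLRMT went from 84.8 ± 3.05 to 70.3 ± 3.12 CPM (log2 fold change -0.27 ± 0.060). TFAM, which packages and helps transcribe the genome, went from 191.8 ± 6.99 to 173 ± 9.24 CPM (-0.15 ± 0.053). MTERF3, a negative regulator, went from 34.1 ± 0.395 to 25.5 ± 2.33 CPM (-0.42 ± 0.080). These CPM carry the SD (n = 3 each) and the log2 fold changes the SE. Of 30 genes of RNA processing and stability 7 were lower and none higher (median -0.10), led by FASTKD2 (-0.47 ± 0.088), which binds MT-RNR2 and MT-ND6 RNA, the oligoribonuclease REXO2 (-0.28 ± 0.057) and the helicase SUPV3L1 (-0.25 ± 0.061). Of 20 genes of mitochondrial DNA replication 2 were higher and 1 was lower (median -0.01), namely the thymidine phosphorylase gene TYMP (0.65 ± 0.164), the thymidine kinase gene TK2 (0.36 ± 0.113) and the helicase TWNK (-0.30 ± 0.069). The median of all tested genes was -0.0027.

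For the nuclear subunit genes of the same complexes the counts below stand beside 16.5% higher and 12.4% lower over all tested genes. Of 36 tested nuclear subunits of complex I 5 were higher and 1 was lower (median log2 fold change 0.07), with NDUFA2 (0.66 ± 0.125), NDUFV2 (-1.22 ± 0.305, on 10 to 46 counts) and NDUFS4 (0.20 ± 0.070) at the smallest p. Complex III had 2 of 9 higher (UQCRQ, 0.58 ± 0.120, and UQCRFS1, 0.17 ± 0.061) and complex IV none of 11 in either direction, with medians of 0.07 and 0.10. The lowest p in the complex IV list was that of COX7A2 (0.17 ± 0.073, edgeR adjusted p = 0.0920). The ATP synthase had 1 of 16 higher (ATP5MC2, 0.20 ± 0.049) and 1 lower (ATP5F1A, -0.87 ± 0.051), with a median of 0.07. Complex II, which has no mitochondrial subunit, had 1 of 4 higher (SDHD, 0.20 ± 0.057). Both lower genes, NDUFV2 and ATP5F1A, lie on chromosome 18, and NDUFA2, NDUFS4 and UQCRQ lie on chromosome 5. NDUFS4, UQCRQ and NDUFA2 start at bases 53560633, 132866560 and 140638740. SDHA, NDUFS6 and COX7C of these lists, also on chromosome 5 (218241, 1801400 and 86617904), were not called, SDHA narrowly (edgeR adjusted p = 0.0516). The other subunit genes called higher lie on other chromosomes. The part of position was not tested.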

How the data were processed

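The 6 libraries hold RNA selected with poly(T) beads and primed with random hexamers, per the labels' protocols. The authors deposited whole-number read counts per gene (raw counts, 1 column per library) with gene length and position. The submitters' processing notes name DESeq2 1.20.0, HISAT2 2.0.5 and featureCounts 1.5.0-p3 with GRCh38, without roles or options. Read length and the counting of shared reads are not given in the sources used here. Libraries of a group differed by more than counting noise (chi-square per degree of freedom 3.41 to 8.11), so each was kept. Counts were filtered with filterByExpr, scaled by TMM and tested with edgeR 4.0.16 (robust quasi-likelihood, group alone, R 4.3.3), adjusted over 15400 genes. DESeq2 1.42.0 was an alternative. The fit was tested on simulated data, where the share of false calls was above the nominal level, so calls near the threshold are less certain than their adjusted p. Shares and ratios were tested by exact permutation. Members, lists and tests were chosen with earlier results of these data known. The rule for named genes takes the 37 genes, BARD1, up to 3 genes of each list by p, and the 4 most abundant pseudogenes. Cell type markers and a few genes named for their length or chromosome stand outside it.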

Additional observations from a re-analysis of the deposited data

How the results depend on the processing

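Of the 28 tested mitochondrial genes, MT-CO2, MT-RNR2, MT-TV, MT-TC, MT-TN, MT-TP, MT-TL1 and MT-TY were called the same way in all 12 alternatives. The number of mRNAs called lower (10) was 3 to 11 with 1 library left out, and that of tRNAs called lower (8) was 5 to 8, and 5 with DESeq2. Without the filter on low counts 8 mRNAs were lower. Other scalings (size factors, library totals, nuclear rows alone) left 10 mRNAs and 8 tRNAs lower. With the replicate block 1 mRNA (MT-CO2) was lower. Deviations from the group mean correlated at -0.11, -0.03 and -0.01 for libraries with the same number. Pairs with unlike numbers had correlations of -0.11 to 0.15. This check cannot decide whether replicates were paired, so the fit with the replicate block remains a limit on the mRNA calls. The sign turned for MT-RNR1 (-0.0657 to 0.15 with 1 library left out) and MT-TM (-0.0600 to 0.67 likewise), neither called. It turned for the log2 ratio of tRNAs to mRNAs (-0.15), which was 0.44 as a median over genes, and for the MT-CO1 share, 0.222 percentage points higher among 9 mRNAs without the overlapping pairs. The log2 difference of light-strand to heavy-strand tRNAs (-0.74) was -0.04 without MT-TV, chosen after seeing the data. The MT-ND4L share difference was -0.0842 to 0.226 percentage points with 1 library left out. With 3 libraries a group no exact permutation test can go below 0.1, and tRNAs near the floor are limited by depth.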

Other observations

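Genes that charge mitochondrial tRNAs and genes that govern mitochondrial biogenesis are given as values, beside 16.5% higher and 12.4% lower over all tested genes. Of 22 genes for mitochondrial tRNA charging 3 were called higher and 2 lower in BARD1-expressing cells, with a median log2 fold change of 0.01 (edgeR). The histidine enzyme HARS2 went from 22.9 ± 0.777 to 32.2 ± 1.42 CPM (SD, n = 3 each; log2 fold change 0.50 ± 0.079, SE). GARS (0.27 ± 0.057) and KARS (-0.20 ± 0.055), which also serve the cytosol, changed less. Of 11 biogenesis regulators 2 were higher and 2 lower (median -0.06). The coactivator gene PPARGC1B went from 6.45 ± 0.226 to 10.2 ± 1.34 CPM (log2 fold change 0.65 ± 0.130). The nuclear receptor gene ESRRA went from 32.7 ± 0.637 to 41.8 ± 5.90 CPM (0.37 ± 0.085). The related coactivator gene PPRC1 went from 174 ± 1.60 to 141 ± 8.68 CPM (-0.30 ± 0.054). CPM here carry the SD (n = 3 each) and log2 fold changes the SE. HARS2 and PPARGC1B lie on chromosome 5 (from bases 140691426 and 149730298). The biogenesis gene PRKAA1, elsewhere on chromosome 5 (from base 40759379), was not called. The part of position was not tested.

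A list of nuclear RNAs taken to lack a poly(A) tail was looked at because poly(T) capture should miss such RNAs. Whether each of them lacks a tail in these cells was not tested. The 18 genes of this list summed to 33.9 to 48.8 CPM in control and 32.2 to 48.7 CPM in BARD1-expressing libraries, so the groups overlapped. Most of this was RN7SL2, HIST1H1C and HIST1H2BD, with means of 22.9, 11.4 and 5.82 CPM in control and 31.1, 4.09 and 5.94 CPM in BARD1-expressing libraries. These changed unlike each other, so the sums are no measure of capture. No count was found for 8 of the 18 in any library. Of 4 tested, 1, the histone gene HIST1H1C, was called lower (-1.50 ± 0.147), against 12.4% of all tested genes. The signal recognition particle RNA gene RN7SL2 had a log2 fold change of 0.45 ± 0.291 and did not pass.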
